A study of Cricetiscus sungorus with 216 samples.

Results

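The mediobasal hypothalamus (MBH) of hamsters in the late phase of short photoperiod (SP) was compared with that of hamsters in the middle of SP. The late group held the 12 libraries from 28 and 32 weeks of SP, and the mid group the 18 libraries from 12, 16 and 20 weeks. Together they are 30 of the 216 libraries of the study, and they were chosen by tissue and week alone. All animals were male Djungarian hamsters (labelled Siberian Hamster, Cricetiscus sungorus) with no stated genotype or drug treatment, and each library came from 1 hamster, with 6 hamsters per week. The study also held long photoperiod (LP) controls, SP groups at 4, 8 and 24 weeks, and the dorsomedial hypothalamus (DMH) of the same animals. Ages are not given per group in the sources used here, so that time in SP and age or cohort cannot be told apart. The MBH was punched from frozen sections, and its polyadenylated RNA was sequenced on the nanopore platform and counted against mouse transcripts.

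In this species, short days lengthen the nightly melatonin signal, which acts on the pars tuberalis at the base of the brain. Under long days the pars tuberalis secretes thyrotropin, which acts on tanycytes, the glial cells that line the third ventricle, and these cells set local thyroid hormone through the deiodinases DIO2 and DIO3. In short days hamsters lose body mass and shut down the gonads, and some enter daily torpor. After many months without any change of day length they become refractory and return to the summer state. The weeks compared here fall on either side of that return.

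Counts of all isoforms with the same gene symbol were added, giving 20156 symbols (called transcripts below), and levels are CPM (counts scaled to a fixed library total, after TMM). Added counts per library were between 665110 and 13208364 in the late group (median 1437132.5) and between 5996 and 4712208 in the mid group (median 1111362). A library of 20 weeks (replicate 2) had 5996 counts in 903 transcripts and stood apart in depth. A library of 28 weeks (replicate 2) stood apart in pituitary hormones, with Prl (prolactin) at 533.5 CPM and Gh (growth hormone) at 113.4 CPM, against highest values of 3.892 and 25.88 CPM in the other 29 libraries. The punch held arcuate neurones in both groups, since Cartpt was read in 30 of the 30 libraries, Agrp in 29, and Npy and Tac2 in 28. Pomc was read in 30 as well, but the pituitary gland also makes it. Other arcuate or tanycyte markers were read less often, with Gpr50 in 26, Kiss1 in 15 and Ghrh in 7 libraries. In whole tissue, fewer cells of a type and less RNA per cell cannot be told apart. Several isoforms of a symbol often hold the same reads, so that an added count can exceed the number of reads. The count of the symbol's single highest isoform is therefore also given where few reads are involved.

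Of the 20156 transcripts, 4 passed an FDR of 0.1 in the late against the mid group (edgeR quasi-likelihood test, Benjamini-Hochberg adjusted). Tshb, Ppp1r1b and Arntl2 were higher in late SP, which is 0.0149% of the transcripts tested, and Dhrs7c was lower, which is 0.00496%. At an unadjusted p below 0.05 there were 671 transcripts higher (3.33%) and 306 lower (1.52%), and over all transcripts the median log2 fold change was 0.01. No transcript separated all 12 late libraries from all 18 mid libraries: 0 were above and 0 below throughout. The shallow library of 20 weeks read only 903 transcripts. All others were at 0 in it and could not be below throughout, so that the 0 below says little. With the 12-week group left out of mid SP, 0 transcripts passed, and the FDR was 0.226 for Arntl2, Dhrs7c and Ppp1r1b and 0.553 for Tshb. Tshb and Ppp1r1b also missed the threshold without the 16-week group (FDR 0.127 and 0.266) and without the 20-week group (FDR 0.145 and 0.129).

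Tshb, which encodes the beta subunit of thyrotropin, rose in late SP. It was read in 10 of the 12 late libraries and in 6 of the 18 mid libraries. Its level ran from 0 to 28.1 CPM in late SP (median 10.8) and from 0 to 7.22 CPM in mid SP (median 0). Thus 8 late libraries lay above the highest mid library, while the other late libraries overlapped with mid SP, and 2 of those were at 0. The log2 fold change was 3.36 ± 0.68 (SE), or 10.3-fold, with an FDR of 0.045 (edgeR), and a permutation test of mean log2 CPM gave p = 0.00021. The highest isoform held 40 counts in late and 5 counts in mid SP. Late levels stayed far from those of LP, where the 6 libraries ran from 104.3 to 693.5 CPM. Mean Tshb was 438 ± 223 CPM in LP and 14.1 ± 13.7 CPM at week 4 of SP (SD, n = 6). The 3 mid weeks, in order, had means of 0.53 ± 0.92, 2.07 ± 3.10 and 0.81 ± 1.98 CPM. Weeks 24, 28 and 32 then had 6.29 ± 7.75, 15.01 ± 11.7 and 9.52 ± 9.25 CPM. The first late week had the higher mean, but 28 and 32 weeks overlapped almost wholly.

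Because thyrotropin is also made in the pituitary gland, Tshb was set beside the other pituitary hormones. Prl or Gh was read in 7 of the 12 late libraries and 6 of the 18 mid libraries. In the 5 late libraries with Prl and Gh at 0, Tshb was read in 5, with a lowest level of 0.56, a median of 10.4 and a highest level of 28.1 CPM. In the 12 mid libraries with both at 0 it was read in 4, with a median of 0 and a highest level of 4.86 CPM. The summed level of the 10 measured pituitary markers was 175.2 to 1633 CPM in late SP (median 277.1) and 10.4 to 476.1 CPM in mid SP (median 209.7), most of it Cga and Pomc, which the MBH and the pars tuberalis also make. Without the 28-week library rich in prolactin, the log2 fold change of Tshb was 3.34 ± 0.70, with an FDR of 0.107. With the replicate number as a block the FDR was 0.102, with the 30 libraries alone 0.128, and with DESeq2 0.310.

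**Figure D1:**
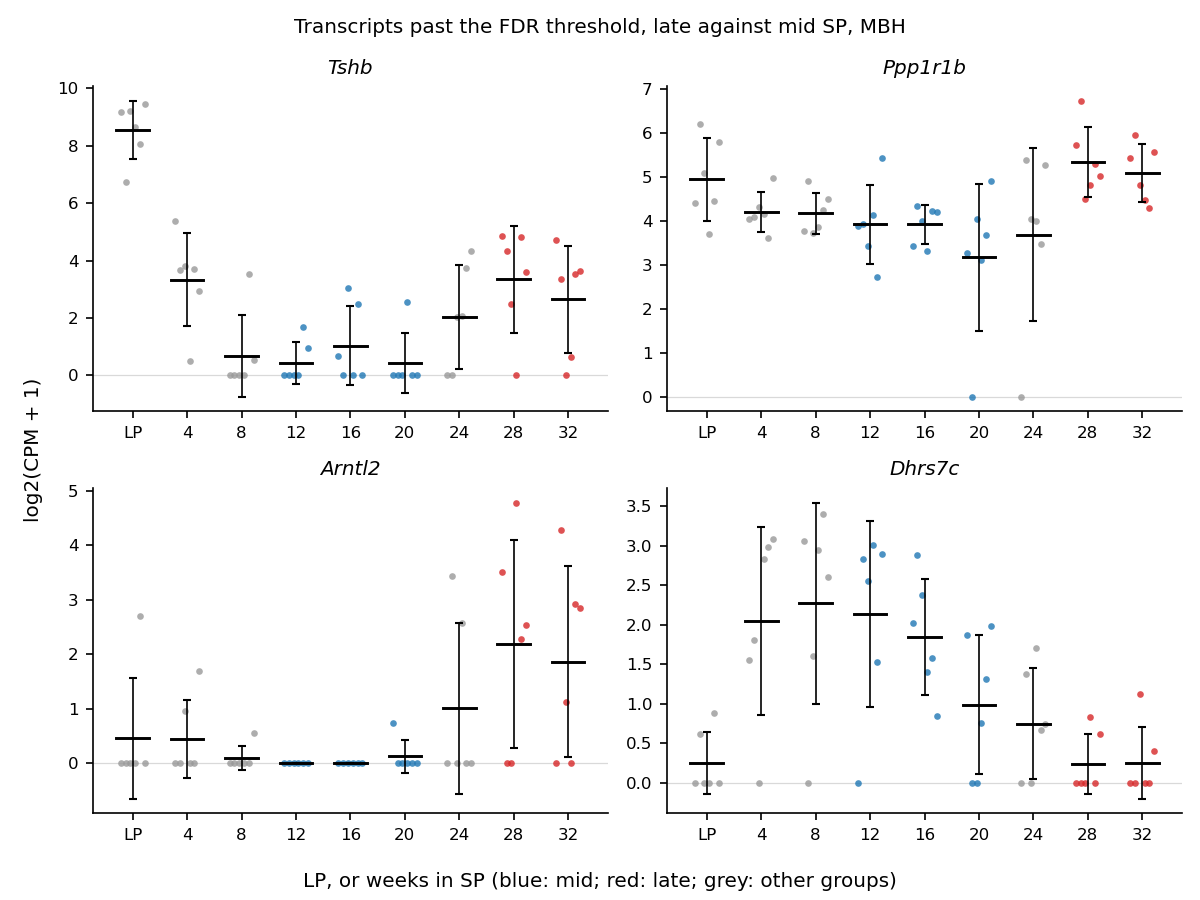
Level of the 4 transcripts past the FDR threshold in each MBH library, as log2(CPM + 1), against photoperiod group (LP, then weeks in SP). Points are hamsters, bars the mean and SD of 6 libraries, blue the mid and red the late weeks. Tshb is high in LP, near 0 in mid SP and read in 10 of 12 late libraries, Ppp1r1b is above the mid median in all 12, Arntl2 is read in 8 late and 1 mid library, and Dhrs7c is low in LP and late SP and higher in mid SP.

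Ppp1r1b rose in late SP. It encodes DARPP-32, a protein that inhibits protein phosphatase 1 once it has been phosphorylated in response to dopamine and cyclic AMP. The late libraries ran from 18.8 to 105.7 CPM (median 34.9) and the mid libraries from 0 to 42.5 CPM (median 14.03). All 12 late libraries were above the mid median, and 15 of the 18 mid libraries lay below the lowest late library. The mean was 41.1 ± 24.3 CPM in late SP (SD, n = 12) and 14.6 ± 9.38 CPM in mid SP (SD, n = 18). The fold change was 2.66 (log2 1.41 ± 0.29, FDR 0.045 with edgeR, permutation p = 5e-05), and it rested on 504 and 281 counts of the highest isoform. Mean levels were 17.1 ± 13.1, 14.7 ± 4.34 and 12.1 ± 9.75 CPM at 12, 16 and 20 weeks, and 46.1 ± 31.04 and 36.2 ± 16.6 CPM at 28 and 32 weeks, beside 35.8 ± 23.8 CPM in LP (SD, n = 6). The highest Ppp1r1b level was that of the prolactin-rich library of 28 weeks. Without it, the log2 fold change of Ppp1r1b was 1.23 ± 0.28 and the FDR 0.137. With the replicate number as a block the FDR was 0.00288.

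Arntl2, which encodes BMAL2, a partner of CLOCK in the circadian transcription complex, had the smallest p. It was read in 8 of the 12 late libraries, with a median of 4.31 and a highest level of 26.5 CPM, and in 1 of the 18 mid libraries, at 0.66 CPM. The log2 fold change was 6.08 ± 0.99 (FDR 0.00485 with edgeR, permutation p = 6e-05). Weeks 12 and 16 held no Arntl2 count, so that the size of this fold change depends on how the fit treats empty weeks. Few reads lie behind the difference. The symbol has 22 isoforms, and its 149 added counts in late SP came down to 11 counts of the highest isoform, against 1 count in mid SP. On that isoform the pooled level was 13.6-fold higher in late SP (95% counting interval 1.98 to 586), and the fit of the highest isoform gave a log2 fold change of 2.53 ± 0.64 with an FDR of 0.131. DESeq2 gave an FDR of 1. Outside the compared weeks Arntl2 was read in 2 of 6 libraries at 24 weeks (mean 2.47 ± 4.13 CPM) and in 2 at 4 weeks (0.53 ± 0.91 CPM). It was read in 1 library each at 8 weeks and in LP, where the mean was 0.92 ± 2.26 CPM (SD, n = 6). Of 21 other clock transcripts measured, 0 had an unadjusted p below 0.05 in either direction. Over all transcripts 3.33% were higher and 1.52% lower at that threshold, so that a count of 0 is near those shares. Among them, Dbp, an output gene of the clock, had a log2 fold change of 0.59 ± 0.32, Nr1d1, a repressor, 0.49 ± 0.27 and Per2, a core repressor, -0.53 ± 0.65 (SE, edgeR).

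Dhrs7c, a member of the short-chain dehydrogenase/reductase family, fell in late SP. It was read in 4 of the 12 late libraries and in 15 of the 18 mid libraries. Late levels ran from 0 to 1.18 CPM (median 0) and mid levels from 0 to 7.09 CPM (median 2.31). Of the mid libraries, 13 were above the highest late library. The log2 fold change was -3.26 ± 0.61 (FDR 0.0215 with edgeR, permutation p = 0.00013), on 6 and 86 counts of its 1 isoform. Mean levels in the 3 mid weeks, in order, were 4.40 ± 2.84, 3.01 ± 2.04 and 1.30 ± 1.29 CPM, and 0.22 ± 0.35 and 0.25 ± 0.47 CPM in the late weeks. The LP mean was 0.23 ± 0.37 CPM and the highest mean, 5.14 ± 3.56 CPM, was at 8 weeks (SD, n = 6). With either late week alone in place of both, the FDR was 0.172 at 28 weeks and 0.124 at 32 weeks. DESeq2 gave 0.00857.

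The remaining pars tuberalis and thyroid hormone transcripts were examined from lists that hold the known members of this axis. Of 8 pars tuberalis transcripts, 3 had an unadjusted p below 0.05 and all 3 were higher in late SP: Tshb, Cga and Eya3. Of all transcripts, 3.33% were higher at that threshold. Cga, the alpha subunit that thyrotropin shares with the gonadotropins, ran from 38.2 to 829.9 CPM in late SP (median 117.3) and from 0 to 244.1 CPM in mid SP (median 65.9). Its log2 fold change was 1.26 ± 0.57 (FDR 0.951 with edgeR, permutation p = 0.0164), and 0.91 ± 0.58 without the prolactin-rich library, whose level was the highest of all. Eya3, a co-activator of Tshb transcription under long days, was above the highest mid library in 8 of the 12 late libraries, while 2 late libraries were at 0. It had a log2 fold change of 1.03 ± 0.50 (FDR 0.999, permutation p = 0.051). The late weeks differed in mean: all 6 libraries of 28 weeks were at 13.2 CPM or more (mean 18.6 ± 5.98), while 32 weeks, at 7.57 ± 7.77 CPM, was close to 12 weeks, at 7.41 ± 5.10 CPM (SD, n = 6). The Eya3 difference between 28 and 32 weeks was 1.31 ± 0.77 on the log2 scale (FDR 1 with edgeR). Tef, the transcription factor that works with Eya3, was at 78.3 and 78.1 CPM on average in late and mid SP. Mtnr1a, the melatonin receptor, was read in 1 library of each group.

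Among 16 transcripts of thyroid hormone handling, 2 were higher and 0 lower at an unadjusted p below 0.05, beside 3.33% and 1.52% of all transcripts. Hr, a thyroid hormone-induced corepressor, was read in 8 late and 5 mid libraries with means of 2.58 ± 3.42 and 0.29 ± 0.53 CPM (log2 fold change 2.72 ± 0.75, FDR 0.284 with edgeR, permutation p = 0.00174). Slco1a4, a thyroid hormone transporter, was read in 4 late and 3 mid libraries, on 6 and 3 counts of its highest isoform. Dio3, which inactivates thyroid hormone, was read in 5 of the 18 mid libraries, all at 12 or 16 weeks, with 7 counts in all, and in 0 of the 12 late libraries. Taking the 7 mid counts as exact, the pooled mid level was 1.89-fold that of 3 counts over the late group. Those 3 counts are the limit that a count of 0 allows. Error in the mid counts is left out, so that 1.89 is not a lower limit. The edgeR contrast of week means is undefined for Dio3, because weeks 20, 28 and 32 held no count, and a permutation test of log2 CPM gave p = 0.102. Dio2, which activates thyroid hormone, was at 2.97 ± 1.68 CPM in late (SD, n = 12) and 2.06 ± 1.59 CPM in mid SP (SD, n = 18), with overlapping groups (log2 fold change 0.39 ± 0.41, FDR 1 with edgeR, permutation p = 0.0998).

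None of the tanycyte and retinoic acid transcripts passed the FDR. Retinoic acid is made from vitamin A by the retinaldehyde dehydrogenases, and in rodents this pathway is active in tanycytes under long days. Of 23 transcripts in the list, 4 were higher and 0 lower in late SP at an unadjusted p below 0.05, beside 3.33% and 1.52% of all transcripts, and the median log2 fold change was 0.14, beside 0.01. Of the 18 read in at least 15 of the 30 libraries, 77.8% had a log2 fold change above 0, beside 53.6% of all transcripts read as often. Lists of other kinds had like shares, with 86.7% for microglia, 76.2% for myelin and 87.4% for ribosomal proteins. Crabp1, a cytosolic retinoic acid-binding protein, had late levels of 22.4 to 97.9 CPM (median 44.05) and mid levels of 0.69 to 78.2 CPM (median 22.01). All 12 late libraries were above the mid median, and 10 mid libraries were below the lowest late library (log2 fold change 1.13 ± 0.35, FDR 0.551, permutation p = 0.00163). Its means in the 3 mid weeks were 14.5 ± 6.05, 25.9 ± 10.03 and 32.9 ± 28.1 CPM, and 59.1 ± 29.8 and 45.3 ± 22.5 CPM in the late weeks (SD, n = 6).

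Aldh1a1, a retinaldehyde dehydrogenase, ran from 15.6 to 296.2 CPM in late SP (median 53.5) and from 0 to 60.1 CPM in mid SP (median 38.3). The highest value was 1 library of 32 weeks, and 10 of the 12 late libraries were above the mid median (log2 fold change 0.87 ± 0.32, FDR 0.766, permutation p = 0.0328). Aldh1a2, the related enzyme, was read in 7 late and 7 mid libraries (log2 fold change 1.12 ± 0.51, FDR 0.975, permutation p = 0.289). It had no count at week 12, so that the size of this fold change depends on the fit. Gpr50, a tanycyte receptor related to the melatonin receptors, ran from 1.18 to 26.5 CPM in late SP (median 13.4) and from 0 to 16.95 CPM in mid SP (median 4.96). Gpr50 was above the mid median in 10 of the 12 late libraries (log2 fold change 0.94 ± 0.44, FDR 0.951, permutation p = 0.0139). Its LP mean was 29.9 CPM. Other tanycyte markers were closer to no difference, such as Vim, an intermediate filament, at 0.42 ± 0.24 and Rax, a tanycyte transcription factor, at 0.37 ± 0.60, while Cyp26b1, which degrades retinoic acid, had -1.12 ± 0.71 (SE, edgeR).

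**Figure D2:**
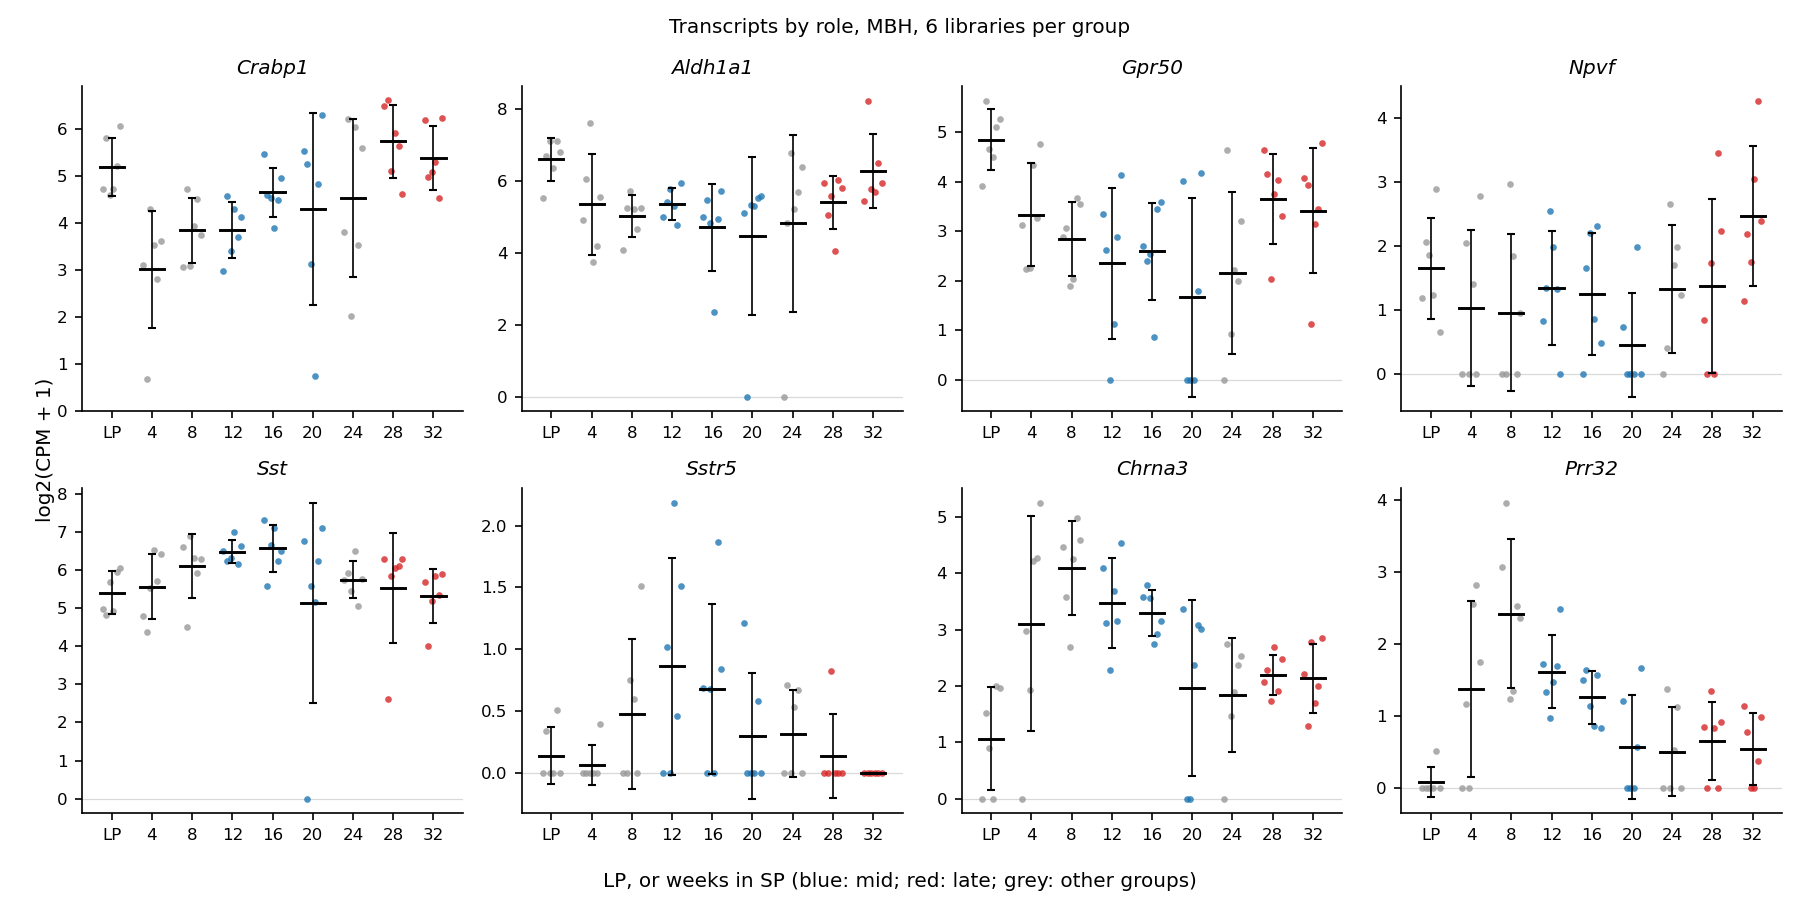
Level of 8 transcripts in each MBH library as log2(CPM + 1), against photoperiod group, with the mean and SD of 6 libraries per group (blue mid, red late). Late levels of Crabp1 all lie above the mid median of 22.01 CPM and late levels of Sst all lie below the mid median of 84.6 CPM, while Chrna3 and Prr32 have their highest means at 8 weeks.

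The somatostatin and growth axis held most of its low p-values on the lower side, although the list as a whole was centred near 0. Of 19 measured, 5 were lower and 1 higher at an unadjusted p below 0.05, beside 1.52% and 3.33% of all transcripts. None passed the FDR, and the list's median log2 fold change was 0.04. Sst, somatostatin, which inhibits growth hormone release, ran from 5.16 to 77.8 CPM in late SP (median 57.1) and from 0 to 159.1 CPM in mid SP (median 84.6). All 12 late libraries were below the mid median, and 10 mid libraries were above the highest late library. The difference in Sst was -0.82 ± 0.27 on the log2 scale (FDR 0.614 with edgeR). The permutation p was 0.255 with all libraries and 0.00109 without the shallow library of 20 weeks, in which Sst was not read. The 3 mid weeks had Sst means of 90.1 ± 20.5, 101.4 ± 40.7 and 67.2 ± 50.6 CPM, and the late weeks 58.5 ± 27.3 and 42.7 ± 16.4 CPM, beside 44.2 ± 17.4 CPM in LP (SD, n = 6).

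Sstr5, a somatostatin receptor, was read in 10 mid libraries and in 1 late library. On its highest isoform 13 counts stood against 1 count, a pooled level 10.5-fold higher in mid SP (95% counting interval 1.58 to 446.5), and the fitted log2 fold change of the added counts was -2.83 ± 0.71 (FDR 0.217, permutation p = 0.015). Week 32 held no Sstr5 count, so that the size of this fold change depends on the fit. The receptors Sstr1 and Sstr2 had log2 fold changes of 0.04 ± 0.55 and 0.41 ± 0.52. Ghrh, growth hormone-releasing hormone, was read in 2 late and 5 mid libraries, with 2 and 7 counts of the highest isoform. Its log2 fold change was -1.72 ± 0.67 (FDR 0.803 with edgeR, permutation p = 0.273). The same limit holds for Ghrh, which had no count at week 28. Igfbp4, a binding protein of insulin-like growth factors, was on the higher side, with late levels of 0 to 28.3 CPM (median 5.79) and mid levels of 0 to 7.92 CPM (median 2.17). It had a log2 fold change of 1.69 ± 0.60 (FDR 0.731 with edgeR, permutation p = 0.0102).

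The feeding peptides of the arcuate nucleus did not pass the test. Of 23 transcripts in the list, 1 was lower and 0 higher at an unadjusted p below 0.05, beside 1.52% and 3.33% of all transcripts. The median log2 fold change was 0.12. Npy and Agrp, which stimulate feeding, were at 120.5 ± 76.8 and 52.03 ± 30.1 CPM in late SP (SD, n = 12) and at 101.0 ± 69.2 and 37.1 ± 30.2 CPM in mid SP (SD, n = 18). Their log2 fold changes were 0.19 ± 0.43 and 0.38 ± 0.41, within their errors. Pomc, the precursor of alpha-MSH, which restrains feeding, had 0.28 ± 0.32, and Vgf, a granin-like precursor, 0.17 ± 0.47. The 1 with an unadjusted p below 0.05 was Cartpt, the precursor of the satiety peptide CART. All 12 late libraries of Cartpt, from 60.6 to 119.7 CPM, were below the mid median of 122.8 CPM, and mid SP reached 279.8 CPM. Cartpt had a log2 fold change of -0.46 ± 0.21 (FDR 0.953 with edgeR, permutation p = 0.0997). Its means were 90.2, 136.3 and 142.7 CPM at 12, 16 and 20 weeks, and 85.2 and 91.2 CPM at 28 and 32 weeks. The 12-week mean thus lay between those of the late weeks, and the LP mean was 104.1 CPM.

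Among 17 reproductive transcripts, Npvf was on the higher and Kiss1 on the lower side at an unadjusted p below 0.05. Of all transcripts, 3.33% and 1.52% were so. Npvf, the precursor of RFRP-3, ran from 0 to 18.2 CPM in late SP (median 2.96) and from 0 to 4.85 CPM in mid SP (median 0.79). It was above the mid median in 10 of the 12 late libraries (log2 fold change 1.59 ± 0.60, FDR 0.775, permutation p = 0.0335). Kiss1, kisspeptin, which drives gonadotropin-releasing hormone neurones, was read in 5 late and 10 mid libraries with 9 and 29 counts of its highest isoform. Its log2 fold change was -2.40 ± 0.82 (FDR 0.685 with edgeR), but the 2 late weeks differed, with means of 4.87 CPM at 28 weeks and 0.20 CPM at 32 weeks. A permutation test of log2 CPM gave p = 0.279 for Kiss1. Tac2 and Pdyn, which encode neurokinin B and dynorphin of the same arcuate neurones, had log2 fold changes of -0.47 ± 0.32 and -0.08 ± 0.29.

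Chrna3 and Prr32 were low in LP, high early in SP and lower again in late SP. Chrna3, the alpha 3 subunit of the nicotinic acetylcholine receptor, ran from 1.43 to 6.22 CPM in late SP (median 3.42) and from 0 to 22.2 CPM in mid SP (median 7.77). All 12 late libraries lay below the mid median, and 13 of the 18 mid libraries lay above the highest late library. The log2 fold change was -1.19 ± 0.37 (FDR 0.568 with edgeR), with a permutation p of 0.042, and 0.00386 without the shallow library. Chrna3 means were 1.43 ± 1.35 CPM in LP and 18.2 ± 8.91 CPM at week 8 (SD, n = 6). From week 12 to weeks 20 and 32 they went from 11.6 ± 6.65 to 4.66 ± 3.96 and 3.73 ± 1.95 CPM. The mean of 20 weeks was thus already close to those of the late weeks. Prr32, a proline-rich protein, had means of 0.07 CPM in LP, 5.64 CPM at week 8, 2.24 CPM at week 12 and 0.53 CPM at week 32, and a log2 fold change of -1.18 ± 0.53 between late and mid SP (FDR 0.951, permutation p = 0.0225).

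Other well-detected transcripts, read in at least 24 of the 30 libraries, were named by the rank of their p, and only Ppp1r1b among them passed the FDR. Permutation p-values and counts beyond a median use the libraries that gave the rank, and are no separate evidence. On the higher side stood Aif1l, an actin-binding relative of the microglial protein Aif1, with late levels of 1.29 to 9.99 CPM (median 4.16) and mid levels of 0 to 3.55 CPM (median 1.27). All 12 late libraries of Aif1l were above the mid median and 7 above the highest mid library (log2 fold change 1.43 ± 0.34, FDR 0.138 with edgeR, permutation p = 0.00011). Ndufb2, a subunit of respiratory complex I, ran from 178.9 to 672.7 CPM in late and from 0 to 258.5 CPM in mid SP, again with all 12 late libraries above the mid median (log2 fold change 0.73 ± 0.19, FDR 0.217). Both passed the FDR when the highest isoform was tested after a filter on low counts, a fit chosen after seeing the data. Without the prolactin-rich library of 28 weeks, Ndufb2 was at 0.52 ± 0.16 (FDR 0.567 with edgeR). Of 79 nuclear transcripts of oxidative phosphorylation, only Ndufb2 had an unadjusted p below 0.05, and their median log2 fold change was 0.01. Over all transcripts, 3.33% were higher and 1.52% lower at that threshold. Gpr146, Tpd52l1, F11r, S100b, Tmem38b and Tmem47 followed with log2 fold changes between 0.55 and 1.29. F11r, a tight junction protein, was read in 12 late libraries and in 12 of the 18 mid libraries.

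On the lower side by rank stood Chrna3, Rictor, Zranb2, Sst, Bend5, Nrp2, Rnf103, Srp72, Tmed10-ps and Hspb1, with log2 fold changes between -1.50 and -0.53 and FDR values between 0.568 and 0.820. Zranb2, a splicing regulator, was below the mid median in all 12 late libraries, with medians of 24.9 CPM in late and 36.9 CPM in mid SP. Rictor, the defining subunit of mTOR complex 2, was read in 9 late and 16 mid libraries (log2 fold change -1.35 ± 0.43). Nrp2, a receptor for semaphorins, was below the mid median in all 12 late libraries (log2 fold change -1.12 ± 0.42). The name Tmed10-ps is that of a processed copy of Tmed10, and reads of the 2 may not be separable.

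**Figure D3:**
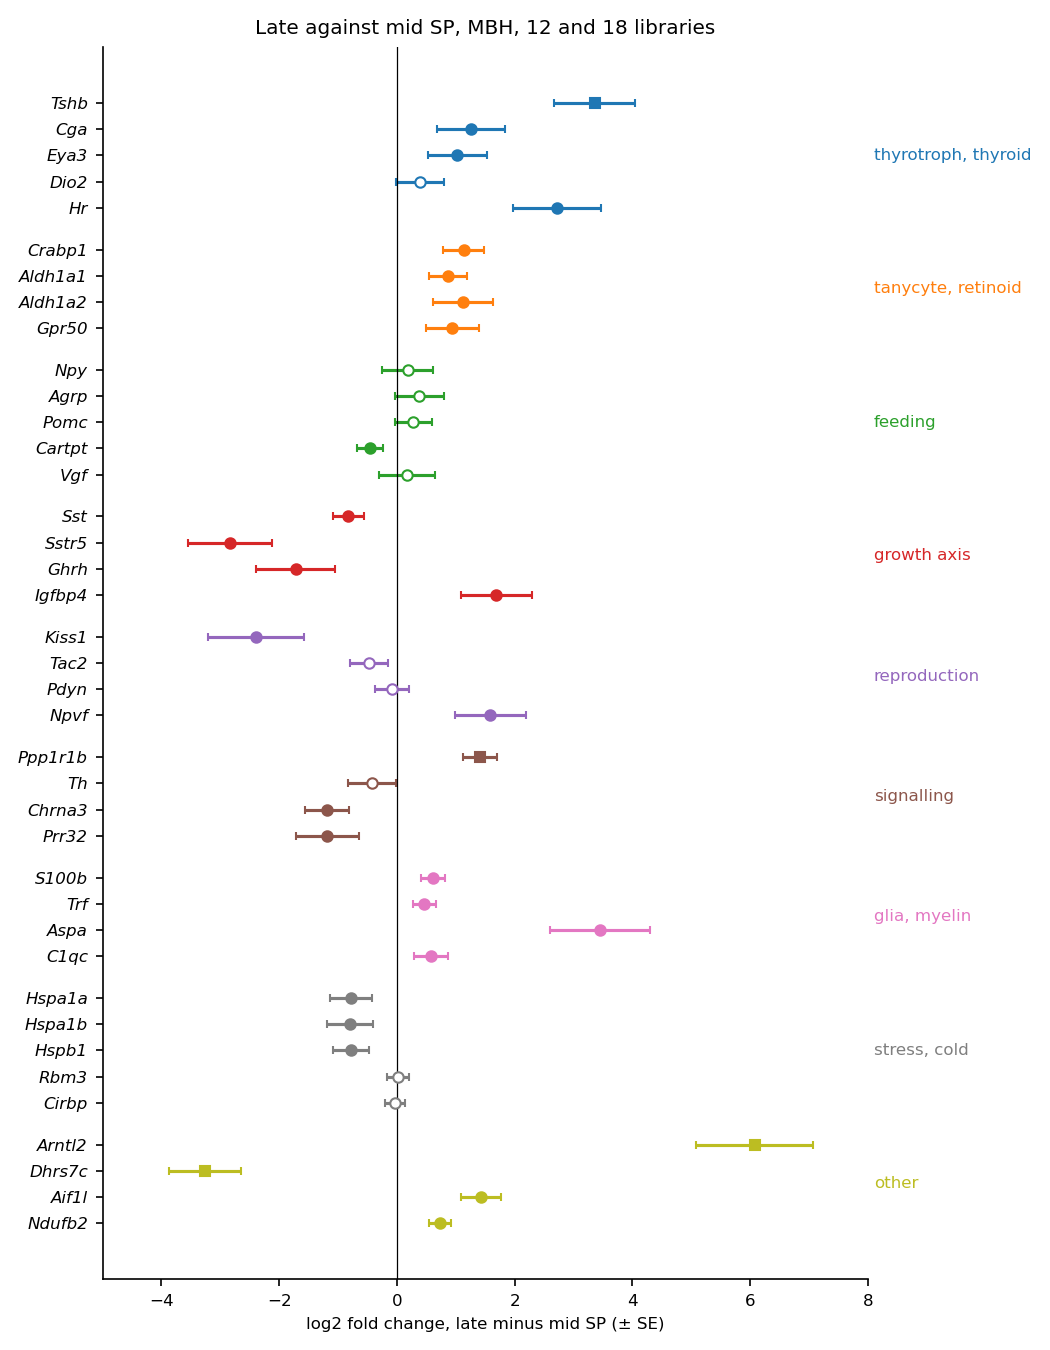
Log2 fold change of late minus mid SP with its SE (edgeR) for 39 named transcripts, grouped by role. Squares passed the FDR of 0.1, filled circles had an unadjusted p below 0.05 and open circles did not. The 4 squares are Tshb, Ppp1r1b, Arntl2 and Dhrs7c, and the feeding peptides Npy, Agrp, Pomc and Vgf lie near 0. Arntl2, Sstr5, Ghrh and Aldh1a2 had no count in at least 1 week, so that the size of their fold change depends on the fit.

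Gene lists for other cell types and processes held no further transcript past the FDR, and are described by counts and medians. Of 23 myelin and oligodendrocyte transcripts, 2 were higher at an unadjusted p below 0.05, beside 3.33% of all transcripts, and the median log2 fold change was 0.20. The 2 were Trf, transferrin, at 0.47 ± 0.19, and Aspa, aspartoacylase, at 3.45 ± 0.85 on 26 and 7 counts of its highest isoform. Mbp, the main myelin protein, had 0.65 ± 0.45. In the microglia list C1qc, a complement component, was at 0.58 ± 0.29, and the median over 19 transcripts was 0.28. In the astrocyte list S100b, a calcium-binding protein, was at 0.61 ± 0.21 and the median over 16 was 0.09. The summed levels overlapped throughout: myelin transcripts ran from 363.4 to 2061 CPM in late and from 37.5 to 1993 CPM in mid SP, and microglial transcripts from 82.3 to 187.0 and from 0 to 177.5 CPM. The ribosomal proteins, 88 transcripts, had a median of 0.12 and 0 with an unadjusted p below 0.05, beside 3.33% higher and 1.52% lower over all transcripts.

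Heat shock, cold shock and chaperone transcripts had 3 of 22 on the lower side and 0 on the higher side at an unadjusted p below 0.05. The shares over all transcripts were 1.52% and 3.33%, and the median of the list was -0.15. The 3 were the heat shock proteins Hspb1, at -0.78 ± 0.31, Hspa1a, at -0.78 ± 0.35, and Hspa1b, at -0.80 ± 0.39 (edgeR log2 fold changes). Hspa1a and Hspa1b are near-identical genes whose reads may not be separable. The cold-induced RNA-binding proteins Rbm3 and Cirbp, which rise in cooled tissue, had differences of 0.02 ± 0.19 and -0.03 ± 0.16. Rbm3 was at 78.9 ± 13.96 CPM in late and 75.4 ± 27.8 CPM in mid SP (SD, n = 12 and n = 18).

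Markers of tissue outside the MBH were also compared. Of 12 skeletal muscle transcripts, Tnnt3 and Mylpf, both of fast muscle fibres, were higher at an unadjusted p below 0.05, beside 3.33% of all transcripts. Tnnt3, fast troponin T, was read in 5 late and 2 mid libraries, with a highest level of 108.4 CPM in 1 library of 28 weeks, which was also the library with the highest muscle sum. The muscle sum ran from 6.05 to 161.4 CPM in late SP (median 13.2) and from 0 to 50.6 CPM in mid SP (median 8.12). Markers of neighbouring hypothalamic nuclei had 0 of 18 transcripts at an unadjusted p below 0.05, with summed levels of 16.8 to 216.9 CPM in late and 29.5 to 330.9 CPM in mid SP. Choroid plexus markers had 0 of 14, with a median log2 fold change of 0.49, beside 0.01 over all transcripts. With 3.33% of all transcripts higher and 1.52% lower, both counts of 0 are near the shares over all. What part these tissues have in the 4 transcripts that passed was not tested.

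**Figure D4:**
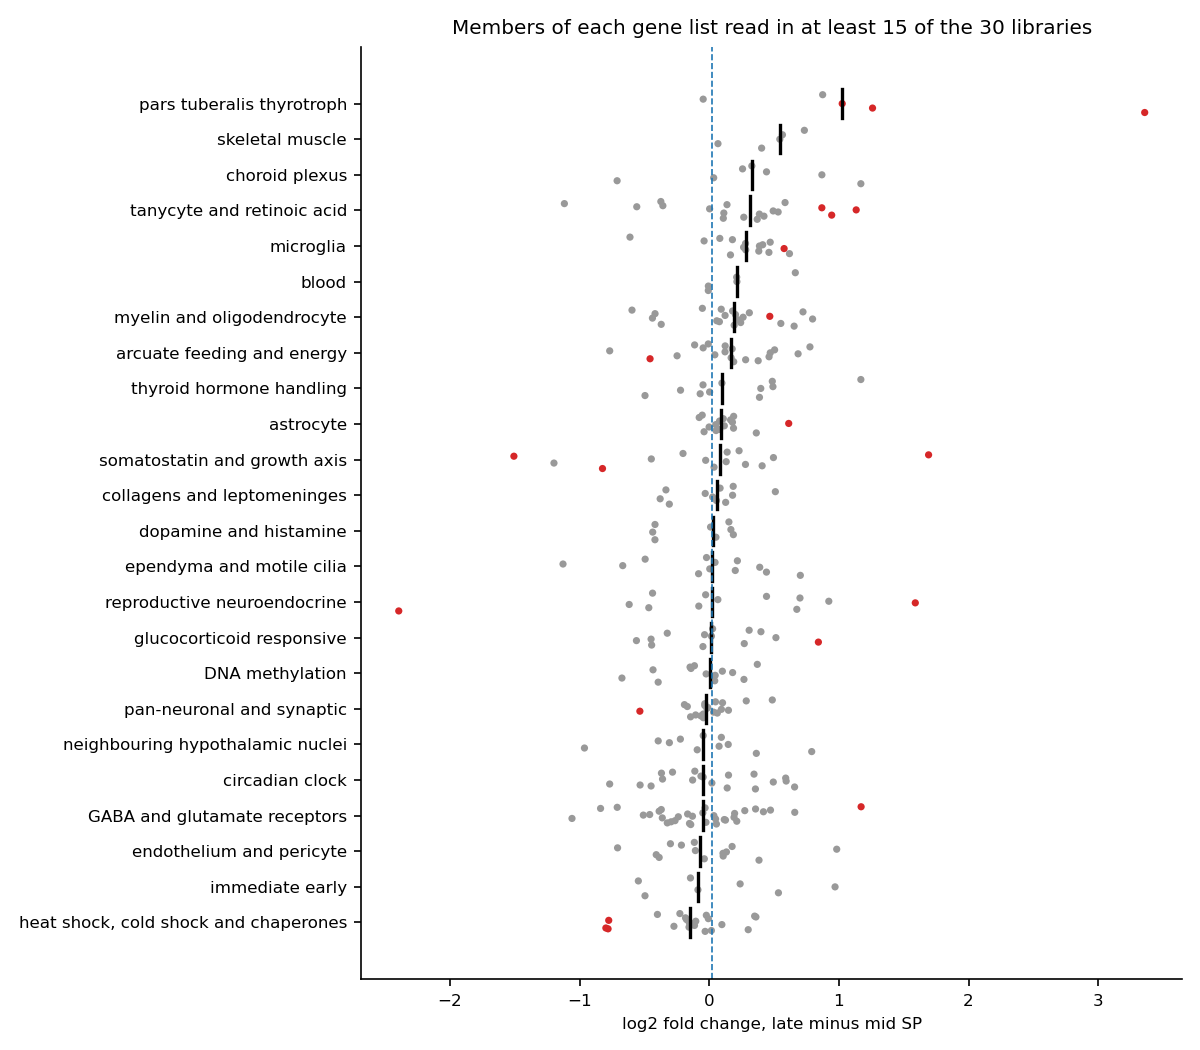
Log2 fold change of late minus mid SP (edgeR) for each list member read in at least 15 of the 30 libraries, 1 row per list. Black bars are list medians, red points have an unadjusted p below 0.05, and the dashed line is the median of 0.02 over the 12065 transcripts read as often. Most lists straddle the dashed line, and the outlying point of the pars tuberalis list is Tshb at 3.36.

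The 2 late weeks were compared with each other, to ask whether the MBH still changed within the late phase. Of 20156 transcripts, 0 passed the FDR between 28 and 32 weeks (edgeR), and 838 had an unadjusted p below 0.05. DESeq2 called 0 as well. Tshb, Ppp1r1b, Arntl2 and Dhrs7c had log2 differences (28 minus 32 weeks) of 0.67 ± 0.85, 0.34 ± 0.43, 0.45 ± 1.05 and 0.41 ± 0.91, all smaller than their SE. Among the named transcripts, Aldh1a1 had a log2 difference of -1.12 ± 0.50 (FDR 1 with edgeR), with means of 45.2 ± 18.3 CPM at 28 weeks and 98.7 ± 98.1 CPM at 32 weeks (SD, n = 6). Its medians were closer, at 50.1 and 56.8 CPM, and 1 library of 32 weeks was at 296.2 CPM. Kiss1 had a log2 difference of 4.82 ± 1.404 (FDR 1 with edgeR).

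Finally, the same contrast was made in the DMH of the same hamsters, to ask whether the differences were shared with the neighbouring nucleus. Of 17760 transcripts in both tables, 0 passed the FDR for a difference between MBH and DMH (edgeR interaction), and 989 had an unadjusted p below 0.05. The quasi-likelihood form of edgeR 4 called 0 as well. Arntl2 came first, with a log2 difference of 8.95 ± 2.03 between the tissues (FDR 0.415), as it was -3.29 ± 1.87 in the DMH. The size of that difference carries the limit of the empty MBH weeks given above. Ppp1r1b was -0.10 ± 0.46 in the DMH, with an FDR of 0.674 for the interaction. Aspa and Ndufb2 followed among the named transcripts, both with an FDR of 0.602. No DMH contrast is given for Tshb and Dhrs7c, which were either not among the 17760 shared transcripts or had an SE too large to use. A difference between the tissues was therefore not shown for any transcript.

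**Figure D5:**
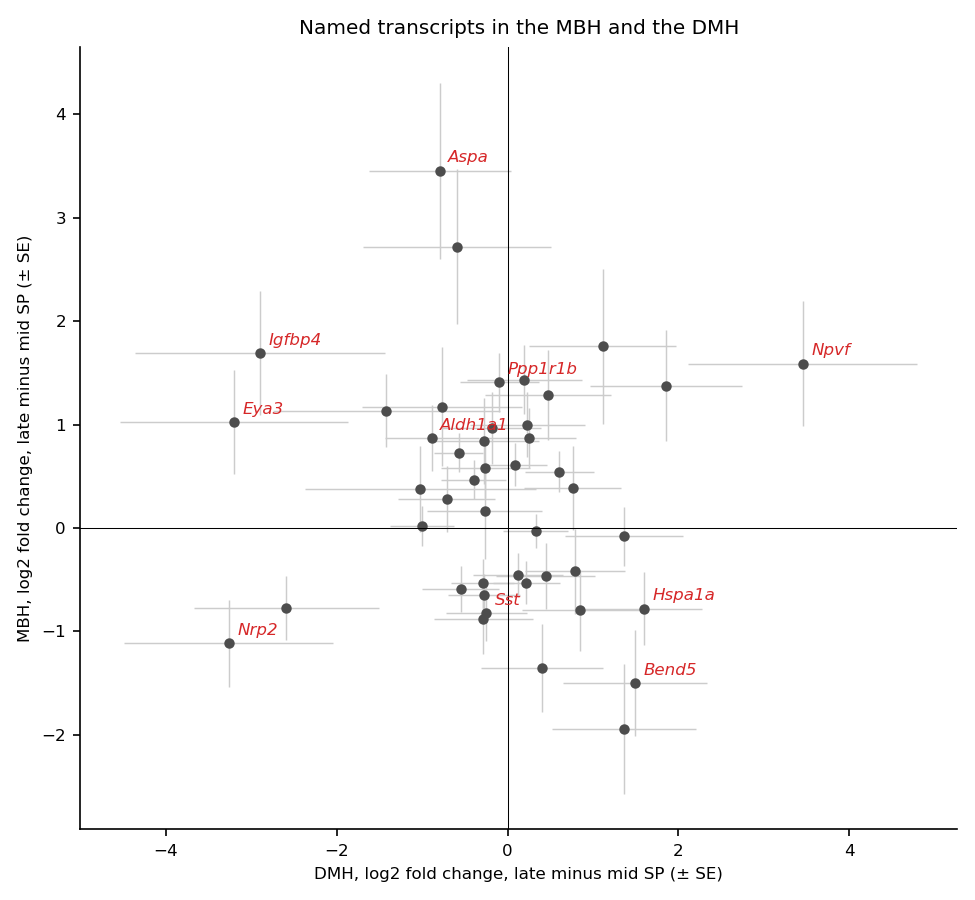
Log2 fold change of late minus mid SP (± SE, edgeR) in the MBH against that in the DMH of the same hamsters, for 45 named transcripts with an SE below 1.5 in the DMH. Ppp1r1b is at 1.41 in the MBH and -0.10 in the DMH, and 0 transcripts passed the FDR for a difference between the tissues.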

How the data were processed

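As deposited, each table holds an expected count (an estimate) for every isoform and library, which the authors made by aligning nanopore cDNA reads to the mouse genome with minimap2 and quantifying them with Salmon, without normalization. Low isoforms had been removed by the authors with edgeR. In the MBH table, 99.06% of the values above 0 are whole (to within 1e-06). Counts of the 91460 isoforms were added over each of 20156 gene symbols and rounded, which counts a read once for each isoform that holds it. No further filter was applied.

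The 54 MBH libraries were fitted in 9 groups with TMM and edgeR 4.0.16 (quasi-likelihood, in its edgeR 3 form, under R 4.3.3). The contrast was the mean of 28 and 32 weeks minus the mean of 12, 16 and 20 weeks, with an FDR below 0.1 over all symbols. SE is the log2 fold change divided by the root of F. Named transcripts were also compared by a two-sided permutation test of mean log2 CPM (prior count 2, 100000 resamples). The permutation p uses the same libraries as the edgeR contrast and is not adjusted for the number of transcripts. MBH and DMH counts entered 1 model for their difference. The fits were tested on simulated data.

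The groups, gene lists and named transcripts were chosen with earlier results of these data known. Transcripts named are those past the FDR. The 10 higher and 10 lower with the smallest p among those read in at least 24 of 30 libraries were added. So were 22 named whatever their values, Chrna3 and Prr32 among them, and up to 4 per list with p below 0.05. P-values measure the spread between hamsters, and counting intervals and limits cover counting error only, for Dio3 that of the late group alone. Pairs of libraries of a week differed by more than sampling noise. The PVN and pituitary tables were not used here.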

Additional observations from a re-analysis of the deposited data

Results flagged for a closer look

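Within each of the 5 weeks compared, the highest or lowest of the 6 libraries was examined for the added count and for the 4 transcripts that passed the FDR, 25 groups in all. In 7 of them 1 library lay far from the rest by Dixon's criterion, which chance alone gives in about 5% of groups. Values of these low transcripts are not spread normally, and most libraries of a week are at 0 in some of them.

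The library of 28 weeks, replicate 6, held 13210000 added counts, against 665100 to 1893000 in the other libraries of that week. Arntl2 was 0.66 CPM in 20 weeks replicate 1, with the other 5 libraries at 0, and 18.6 CPM in 32 weeks replicate 2, against 0 to 6.56 CPM. Dhrs7c was 1.18 CPM in 32 weeks replicate 3, against 0 to 0.33 CPM. Ppp1r1b was 42.5 CPM in 12 weeks replicate 6, against 5.63 to 16.5 CPM, and 105.7 CPM in 28 weeks replicate 2, against 21.6 to 52.1 CPM. Tshb was 4.86 CPM in 20 weeks replicate 4, with the other 5 libraries at 0.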

How the results depend on the processing

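Against 4 transcripts in the report, 15 passed with 28 weeks alone as late and 1 (Arntl2) with 32 weeks alone, 0 without 12 weeks, 2 without 20 weeks, 27 with the highest isoform in place of the sum and 19 with late and mid as single groups. The 27 rest on a fit that gave every transcript the same prior spread (an infinite prior df, against 7.85 for the sum). With a filter on low counts as well, 4 passed, of which 2 (Ppp1r1b and Tshb) were among the 4 of the report. The single groups, this filtered fit and the permutation tests without the shallow library were chosen after seeing the data. Leaving out each of the 30 libraries gave 2 to 6. Arntl2 and Dhrs7c kept their call without any single library (30 of 30), while Ppp1r1b lost it without any of 7 libraries and Tshb without any of 8, with FDR values up to 0.145 and 0.157. Between 28 and 32 weeks, the count of 0 became 9 with the highest isoform alone. All other settings of the 3 contrasts gave counts within 1.5 times, and 0 called values changed sign.

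The replicate numbers did not meet the criterion for pairing hamsters (every pair above 0.1), and no label says what they mark, but same-numbered libraries were more alike than others. Libraries of different weeks with the same number had correlated deviations above 0.1 in 20 of 60 pairs (22 of 300 pairs with different numbers), and 18 of 30 libraries correlated best with one of their own number. With the replicate block, 3 transcripts passed, 3 of them among the 4, and Tshb had a log2 fold change of 3.28 (FDR 0.102). With each animal as a block, 0 passed between MBH and DMH. Depth limits transcripts such as Dio3, Sstr5 and Arntl2, which rest on fewer than 20 counts of 1 isoform.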
